A study of Canis lupus familiaris with 4 samples.

Results

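Interferon-stimulated genes were followed in stem-like cells of 2 dog (Canis lupus familiaris) mammary cancer lines, P114 and CMT-U27. The module is a list of 49 symbols: interferon receptors, the transcription factors that carry their signal, and genes known to be switched on by it. A gene was taken from the array where a probe's gene name, or the symbol in brackets in its description, matched the list. By that rule 41 genes with 61 probes were found among 43603 probes for 13769 symbols. Of these, 32 genes with 44 probes had enough signal to be tested, out of 28694 tested probes for 10803 symbols.

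The stem-like cells had been sorted from each line by flow cytometry as Sca1+/EpCAM+/CD44+ cells, grown in RPMI-1640 medium with fetal bovine serum, and labelled as day 3. They were kept either in single culture or in co-culture with tumour-associated macrophages. Each of the 4 arrays carried both cultures of 1 line, one in the dye Cy3 and the other in Cy5, so that the ratio of co-culture to single culture was measured directly. There were 2 arrays per line with the dyes exchanged between them; co-culture carried Cy3 on P114 replicate 1 and CMT-U27 replicate 2, and Cy5 on the others. By the labels the 2 arrays of a line are biological replicates, but whether an exchanged pair came from separate RNA extracts is not said, so the p-values measure the spread between these arrays, which may be technical. Nor do the labels say whether macrophages were removed before RNA was taken. Each line is 1 line, and every array lay on 1 slide.

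Interferons are secreted proteins that cells release on sensing viral or damaged nucleic acid. Type I interferons bind the receptor IFNAR1/IFNAR2 and activate STAT2, which joins IRF9 to switch on antiviral genes; type II interferon (interferon gamma), which activated T cells and natural killer cells release, binds IFNGR1/IFNGR2 and induces IRF1. The induced proteins detect foreign RNA (IFIH1, DDX58), degrade it (ISG20) or lead to its degradation (the OAS enzymes). Others hold back its translation (IFIT proteins, EIF2AK2), block virus particles (MX proteins), or attach the ubiquitin-like protein ISG15 to other proteins.

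The probes on which the results below turn most are 60 bases long and are printed as the array design holds them, 5′ to 3′, with positions on CanFam3.1 as the files give them, all on the plus strand. They are shown because several probes for 1 gene did not give the same result. Capitals mark the bases that 2 overlapping probes of the same gene share: 24 bases for OAS2 and 17 for IRF9. The OAS1 probe is drawn from sequence that spans 880 bases of the genome. The first OAS1, OAS2, DTX3L and IRF9 probe in each case is the brightest tested one, which stands for the gene in what follows. Whether a probe lies in a coding or an untranslated exon was not analysed here.
OAS1, chr26:10394078-10394957: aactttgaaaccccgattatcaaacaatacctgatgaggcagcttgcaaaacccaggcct
OAS2, chr26:10447681-10447740: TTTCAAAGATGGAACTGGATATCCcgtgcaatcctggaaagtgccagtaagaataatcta
OAS2, chr26:10447645-10447704: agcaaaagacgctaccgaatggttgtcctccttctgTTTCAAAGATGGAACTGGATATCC
DTX3L, chr33:25684116-25684175: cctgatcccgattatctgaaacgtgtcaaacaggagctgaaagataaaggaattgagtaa
DTX3L, chr33:25682899-25682958: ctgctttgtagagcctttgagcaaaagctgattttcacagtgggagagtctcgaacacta
DTX3L, chr33:25680822-25680881: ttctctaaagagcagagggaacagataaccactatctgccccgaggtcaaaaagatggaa
IRF9, chr8:4156815-4156874: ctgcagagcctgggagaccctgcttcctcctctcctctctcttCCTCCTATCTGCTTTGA
IRF9, chr8:4156858-4156917: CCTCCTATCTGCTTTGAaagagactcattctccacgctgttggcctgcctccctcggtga

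Of the 49 symbols, 8 were not found on the array by name: the receptor subunits IFNAR1, IFNAR2 and IFNGR2, the transcription factor IRF7, and IFI44, ADAR, SP110 and IFITM3. A further 9 were on the array but not tested, because no probe was well above background on both arrays of any line and culture: IRF8, IFIT1, IFIT2, DHX58, RSAD2, USP18, XAF1, GBP1 and BST2. IFIT1 passed that level in 3 of the 8 channels and the other 8 genes in 2. The untested set thus holds RSAD2 (viperin) and IFIT1, both strongly induced by type I interferon in many cell types. Several members are neighbours in the genome: OAS1, OAS2 and OAS3 lie within chr26:10394078-10447740, PARP9, DTX3L and PARP14 within chr33:25643991-25798074, and MX1 and MX2 within chr31:35882609-35929802.

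One array stood apart from the others. On P114 replicate 1, 89.4% of all probes in the co-culture channel and 91.8% in the single-culture channel were well above background, against 57.9% to 65.7% on the other 3 arrays, and 58 and 60 of the 61 member probes were, against 38 to 43. No probe was saturated. The labelled cell type was checked by 8 epithelial and sort genes found on the array of 11 listed, and all 8, including EPCAM and CD44, were well above background in 8 of 8 channels. The gene for Sca1 was not among them. Of 18 macrophage genes, all on the array, only CD14, CD163, CD68, CYBB and CD86 had enough signal to be tested; Of the other 13, C1QB was well above background in 4 channels, FCER1G, SPI1 and C1QC in 3, and the rest, CSF1R, AIF1, TYROBP and PTPRC among them, in 2. The summed level of the 5 tested genes was 1526 to 1696 in P114 co-culture and 1720 to 1732 in P114 single culture, and 1464 to 1637 against 1357 to 1570 in CMT-U27. Within each array it was lower in co-culture on both P114 arrays (1696 against 1732, and 1526 against 1720) and higher in co-culture on both CMT-U27 arrays (1464 against 1357, and 1637 against 1570). None of the 5 passed the test with co-culture in limma.

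No member changed with co-culture at an adjusted p (Benjamini-Hochberg over all 28694 tested probes, limma) of 0.05, in P114, in CMT-U27, in the mean of both lines, or in the difference between them. The background was the same: 0% of the 10803 genes passed in each of these 4 comparisons. At an unadjusted p under 0.05, 1757 probes passed in P114, 928 in CMT-U27, 1881 in the mean of both lines and 821 in the difference. The lowest adjusted p of a member was 0.797 in P114, 1 in CMT-U27, 0.757 in the mean and 1.00 in the difference. Under the main settings no member's 95% interval reached 1 on the log2 scale in either direction. The intervals together ran from -0.55 to 0.50 in P114, from -0.56 to 0.59 in CMT-U27 and from -0.53 to 0.81 for the difference. An offset of 50 added to every intensity draws the ratios of dim probes towards 0, so these intervals do not bound changes in dim genes. Over all settings tried, the P114 ratio of CMPK2 ran from -1.27 to 0.0031 and that of PARP9 from -1.02 to 0.07. In RNA from a whole culture, fewer cells of a type and less RNA per cell cannot be told apart.

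The direction of the small ratios was one-sided in CMT-U27 and even in P114. In CMT-U27, 28 members had a mean log2 ratio above 0 and 4 below, with a median of 0.09, against a median of 0.03 over all 10803 genes, of which 71.8% were above 0. In P114 the split was 16 and 16, with a median of 0.0036 for the members and 0.0088 for all genes, of which 53.9% were above 0. On both CMT-U27 arrays 22 members were higher in co-culture and 2 lower, while 41.3% of all genes were higher and 10.9% lower. On both P114 arrays the counts were 11 and 5, with 23.7% and 19% of all genes. The ratios of the 2 CMT-U27 arrays correlated across the 32 members with a Pearson r of 0.56 and a Spearman rho of 0.52, and those of the 2 P114 arrays with 0.09 and 0.08. Over all genes r was 0.06 and -0.15. Genes on 1 array share their labelling and normalization and are not independent, so these values are descriptions.

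**Figure D1:**
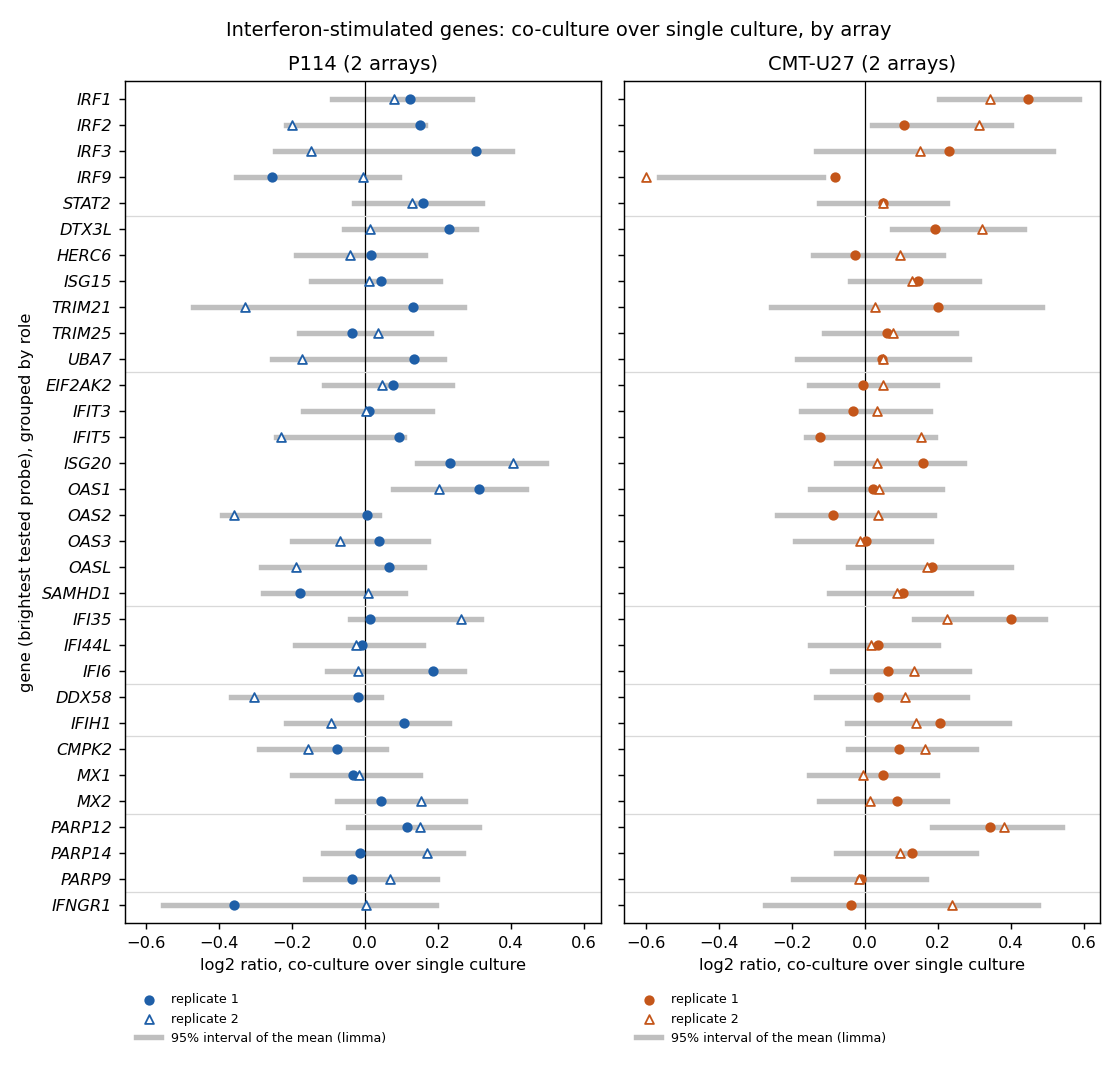
Log2 ratio of co-culture to single culture for the 32 tested interferon-stimulated genes, grouped by role, in P114 and CMT-U27; points are the 2 arrays of each line and bars the 95% interval of the fitted value. Every interval lies within 1 log2 unit of 0, and in CMT-U27 the points of IRF1, PARP12, IFI35 and DTX3L lie above 0 on both arrays.

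Among receptors, IFNGR1, the ligand-binding chain of the interferon gamma receptor, was the 1 tested gene of 4 listed. The log2 ratios of its brightest probe were -0.36 and 0.00 on the P114 arrays and -0.04 and 0.24 on the CMT-U27 arrays, so by that probe neither line held a direction. Over its 3 tested probes the means ran from -0.18 to 0.02 in P114, differing in sign, and from 0.07 to 0.10 in CMT-U27.

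IRF1, a transcription factor induced by interferon gamma that switches on antigen presentation and antiviral genes, had the largest ratio of any member in CMT-U27. Its log2 ratios there were 0.45 and 0.34, a mean of 0.40 ± 0.07 (SD, n = 2) or 1.32-fold, with a 95% interval of 0.20 to 0.59. On the P114 arrays they were 0.12 and 0.08, a mean of 0.10. All 4 arrays were thus above 0 and both CMT-U27 arrays above both P114 arrays. The ratios differed between the lines by 0.29 (95% interval 0.02 to 0.56), and neither the CMT-U27 ratio nor the difference passed adjustment in limma (adjusted p = 1 and adjusted p = 1.00).

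IRF9, the DNA-binding partner of STAT2, was the member with the most negative ratio in CMT-U27, and it depended on the probe. Its brighter probe had a mean log2 brightness of 16.22, where the probes shown for IRF1, STAT2, IRF2 and IRF3 had 7.77 to 10.86. How far ratios hold at that brightness was not tested. That probe gave -0.25 and -0.01 in P114 and -0.08 and -0.60 in CMT-U27, a CMT-U27 mean of -0.34 ± 0.37 (SD, n = 2). All 4 values were below 0, but the 2 CMT-U27 arrays lay far apart. The 95% interval of -0.56 to -0.12 is narrower than that spread because the fit assigns the part of the difference between exchanged dyes that both lines share to the dye. The other IRF9 probe, which shares the 17 capital bases printed above, gave 0.07 in CMT-U27.

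The remaining transcription factors had smaller ratios in CMT-U27. STAT2, the type I interferon signal carrier, gave 0.16 and 0.13 in P114 and 0.05 and 0.05 in CMT-U27, above 0 on all 4 arrays. IRF2, which competes with IRF1 for its sites, gave 0.15 and -0.20 in P114 and 0.11 and 0.31 in CMT-U27 (mean 0.21, limma adjusted p = 1), and its other 2 probes gave 0.03 each in CMT-U27. IRF3, activated by the RNA-sensing pathway, gave 0.30 and -0.15 in P114 and 0.23 and 0.15 in CMT-U27.

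For the RNA sensors, IFIH1 (MDA5) gave 0.11 and -0.09 in P114 and 0.21 and 0.14 in CMT-U27. DDX58 (RIG-I) gave -0.02 and -0.30 in P114 and 0.04 and 0.11 in CMT-U27. Both sensors were above 0 on both CMT-U27 arrays and neither was so in P114.

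Among effectors acting on RNA, 9 of 12 listed were tested, and the largest ratios were in P114. ISG20, an exonuclease that degrades viral RNA, gave 0.23 and 0.40 in P114, a mean of 0.32 ± 0.12 (SD, n = 2; 95% interval 0.14 to 0.50; limma adjusted p = 0.797), and 0.16 and 0.03 in CMT-U27. OAS1, which makes the 2-5A messenger that activates RNase L, gave 0.31 and 0.20 in P114 (mean 0.26 ± 0.08, SD, n = 2; limma adjusted p = 0.797) and 0.02 and 0.04 in CMT-U27. By these probes both genes were above 0 on all 4 arrays, but the second OAS1 probe gave a mean of 0.03 in P114 and -0.01 in CMT-U27, where it was not well above background. OAS2, of the same enzyme family, gave 0.01 and -0.36 in P114 and -0.09 and 0.04 in CMT-U27, so OAS2 held no direction in either line. OAS3, IFIT3 and EIF2AK2 (PKR) stayed between -0.07 and 0.08 on every array.

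Among genes of the ISG15 and ubiquitin system, 6 of 7 listed were tested, and all 6 means were above 0 in CMT-U27. DTX3L, a ubiquitin ligase that works with PARP9, gave 0.23 and 0.01 in P114 and 0.19 and 0.32 in CMT-U27, a CMT-U27 mean of 0.26 ± 0.09 (SD, n = 2; limma adjusted p = 1). Its middle probe printed above gave a similar CMT-U27 value and the most 5′ of them did not: the 3 ranged from 0.01 to 0.29. ISG15 itself gave 0.05 and 0.01 in P114 and 0.15 and 0.13 in CMT-U27. HERC6, UBA7, TRIM25 and TRIM21, the other ligases and activating enzyme of the system, had CMT-U27 means of 0.04, 0.05, 0.07 and 0.11.

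PARP12, a mono-ADP-ribosyltransferase with antiviral activity, gave 0.34 and 0.38 in CMT-U27 (mean 0.36 ± 0.03, SD, n = 2; limma adjusted p = 1) and 0.12 and 0.15 in P114. It was above 0 on all 4 arrays, but its other probe gave 0.01 in CMT-U27. IFI35, an interferon-induced leucine zipper protein, gave 0.40 and 0.23 in CMT-U27 (mean 0.31 ± 0.12, SD, n = 2; limma adjusted p = 1) and 0.01 and 0.26 in P114. PARP14 gave a CMT-U27 mean of 0.11 and PARP9, the partner of DTX3L, one of -0.01. MX1, a GTPase that traps incoming viruses, lay between -0.03 and 0.05 on all 4 arrays.

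The other members had small ratios under the main settings, and for CMPK2 the sign differed between the lines. CMPK2, a nucleotide kinase, gave -0.08 and -0.16 in P114 and 0.09 and 0.17 in CMT-U27, below 0 on both P114 arrays and above 0 on both CMT-U27 arrays; the difference of 0.25 did not pass adjustment (limma adjusted p = 1.00). OASL and SAMHD1 gave 0.07 and -0.19, and -0.18 and 0.01, in P114, but 0.18 and 0.17, and 0.11 and 0.09, in CMT-U27. IFI6 gave 0.19 and -0.02 in P114 and 0.06 and 0.14 in CMT-U27, and IFIT5 gave 0.09 and -0.23 in P114 and -0.12 and 0.16 in CMT-U27, so IFIT5 held no direction in either line. MX2, related to MX1, was above 0 on all 4 arrays at 0.01 to 0.15, and IFI44L stayed between -0.02 and 0.04.

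At an unadjusted p under 0.05, 2 of 32 members were higher and 0 lower in P114, beside 3.93% and 2.74% of all genes. In CMT-U27 the counts were 5 and 1, beside 2.99% and 0.99%. For the mean of both lines they were 6 and 1, beside 5.74% and 1.75%, and for the difference 1 and 0, beside 2.61% and 0.842%. The CMT-U27 genes were IRF1, PARP12, IFI35, DTX3L and IRF2 above 0 and IRF9 below, and in the mean over lines ISG20 and OAS1 stood with IRF1, PARP12, IFI35 and DTX3L, again with IRF9 below. Each array was also centred on its median in place of the intensity-dependent loess correction. That called 20 of 32 members in CMT-U27, 20 in the mean and 15 in the difference. Of all 28694 tested probes it called 17343, 16518 and 12449. It also moved the median of all probes to 0.68, 0.42 and 0.51. Relative to that shift the CMT-U27 member median was -0.03. By that measure IRF1 stood at 0.36, PARP12 at 0.81 and DTX3L at 0.79 above the median of all probes in CMT-U27, MX1 at -0.53 and OAS1 at -0.52, and IRF9 turned to 0.65.

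The comparison of the lines with each other gave the larger values. In single culture 5 members were higher in CMT-U27 than in P114 and 3 lower at an adjusted p of 0.05 (limma separate-channel fit), beside 10.1% and 7.71% of all 10803 genes. In co-culture 6 were higher and 3 lower, beside 11% and 7.11%. IFI6, DTX3L, IFI35, ISG15 and IRF1 were the genes higher in CMT-U27, joined in co-culture by CMPK2, and OAS2, OAS1 and IFIT5 were lower in both cultures. The median over the 32 members was 0.09 in single culture and 0.05 in co-culture, against 0.04 and 0.06 over all genes, with 18 members higher and 14 lower in the first and 17 and 15 in the second. The member medians thus lay near those of all genes, and members, like all genes, were called in both directions.

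The values that follow are normalized log2 intensities of 1 probe in the single-culture channels. OAS2 stood at 11.11 and 11.28 in P114 and at 8.89 and 8.84 in CMT-U27. It was the member with the largest difference, -2.33 on the log2 scale (SE 0.19; 95% interval -2.79 to -1.86), or 5.02-fold lower in CMT-U27 (limma adjusted p = 0.0015), and 4.52-fold lower in co-culture. The overlapping second OAS2 probe gave -2.0.

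OAS1 stood at 8.92 and 9.19 in P114 and at 7.44 and 7.50 in CMT-U27, which made it 2.99-fold lower (log2 -1.58, SE 0.15, limma adjusted p = 0.0025) and 3.51-fold lower in co-culture. A second OAS1 probe was dim in both lines, with means of 7.07 in P114 and 6.91 in CMT-U27, where it was not well above background. It gave -0.16 (limma adjusted p = 0.566), which is only a bound. IFIT5, which binds viral RNA ends, stood at 8.09 and 8.15 in P114 and at 7.49 and 7.40 in CMT-U27, 1.60-fold lower (log2 -0.67, SE 0.13, limma adjusted p = 0.0234). For all 3 genes both P114 arrays lay above both CMT-U27 arrays. The genes were chosen by a test on these same channels, so that separation is no further support.

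Of the 9 tested effectors on RNA, 7 were lower in CMT-U27, and 3 of these, OAS1, OAS2 and IFIT5, were called. Over all genes 54.4% were higher and 7.71% were called lower. OAS3 and IFIT3, among the 7, passed the signal filter only through P114, so their direction was not independent of that filter. Of the 7, OAS1, OAS2 and OAS3 are neighbours at 1 locus. OASL, a catalytically altered member of the OAS family, differed by -0.44 (limma adjusted p = 0.244) and EIF2AK2 by -0.26 (0.242). OAS3 and IFIT3 were not well above background in CMT-U27 single culture, so their measured levels there give only bounds. Against those levels P114 read 1.15-fold and 1.12-fold higher, as point values. The fitted differences had 95% intervals of -0.55 to 0.15 and -0.49 to 0.17, which include 0, and were not called. ISG20 and SAMHD1, a nucleotide hydrolase, were on the other side at 0.32 and 0.21.

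IFI6, a small interferon-induced membrane protein, stood at 7.80 and 7.69 in P114 and at 9.59 and 9.64 in CMT-U27, the largest difference upward. It was 3.65-fold higher (log2 1.87, SE 0.16, 95% interval 1.47 to 2.26, limma adjusted p = 0.0018) and 3.69-fold higher in co-culture.

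DTX3L stood at 8.41 and 8.45 in P114 and at 10.13 and 10.00 in CMT-U27, 3.1-fold higher (log2 1.63, SE 0.13, limma adjusted p = 0.0017) and 3.40-fold higher in co-culture. Of its other probes one gave 1.48 and the most 5′ one 0.15 (limma adjusted p = 0.544), so the 3 probes printed above gave different sizes. Its genome neighbours PARP9 and PARP14 differed by 0.64 (limma adjusted p = 0.065) and 0.42 (0.158), in the same direction and not past the threshold.

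ISG15 stood at 7.61 and 7.51 in P114 and at 8.29 and 8.32 in CMT-U27, 1.68-fold higher (log2 0.75, SE 0.13, limma adjusted p = 0.017). IFI35 stood at 7.37 and 7.18 against 8.09 and 8.23, 1.84-fold higher (log2 0.88, SE 0.13, limma adjusted p = 0.0104). IRF1 stood at 7.14 and 7.45 against 8.0 and 8.03, 1.65-fold higher (log2 0.72, SE 0.17, limma adjusted p = 0.0446). For these genes too the arrays of the 2 lines did not overlap, which again is no further support, since the same channels chose them. In co-culture the folds were 1.81, 2.08 and 2.02. CMPK2, which lies beside RSAD2 on chromosome 17, was 1.71-fold higher in co-culture (limma adjusted p = 0.017) and missed the threshold in single culture (log2 0.53, limma adjusted p = 0.054).

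Of the 5 tested transcription factors and the receptor IFNGR1, IRF1 alone was called between the lines. STAT2 differed by 0.01 (95% interval -0.31 to 0.34), IRF9 by 0.19 (-0.33 to 0.72), IRF3 by 0.13 (-0.72 to 0.98) and IFNGR1 by -0.38 (-1.36 to 0.60). Over the 3 tested IFNGR1 probes the difference ran from -0.38 to 0.0004. IRF2 differed by -0.50 (-0.88 to -0.12), with a limma adjusted p = 0.090. IFIH1 differed by -0.16, DDX58 by -0.48 (limma adjusted p = 0.162), MX1 by 0.41 (0.130) and MX2 by 0.27 (0.295). Among STAT2, IRF9, IRF3, IFNGR1 and IRF2 the interval was narrowest for STAT2 and widest for IFNGR1.

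**Figure D2:**
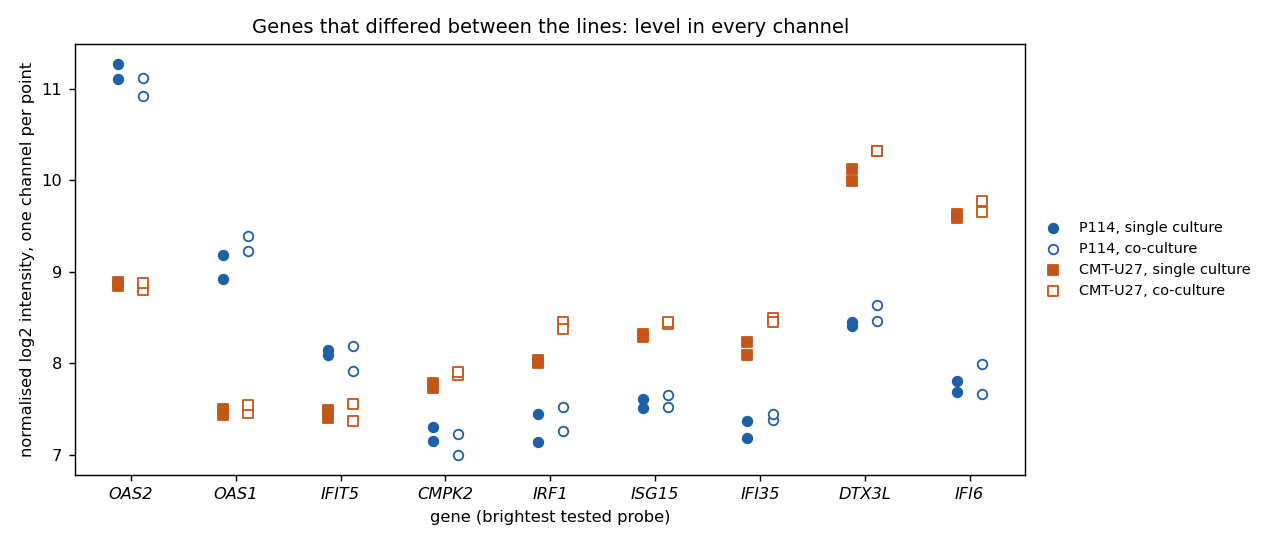
Normalized log2 intensity in each of the 8 channels for the 9 members called between the lines in either culture; each point is 1 channel, marked by line and culture. OAS2, OAS1 and IFIT5 lie higher in P114 and the other 6 genes higher in CMT-U27, and for each gene the 2 cultures of a line lie close together.

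**Figure D3:**
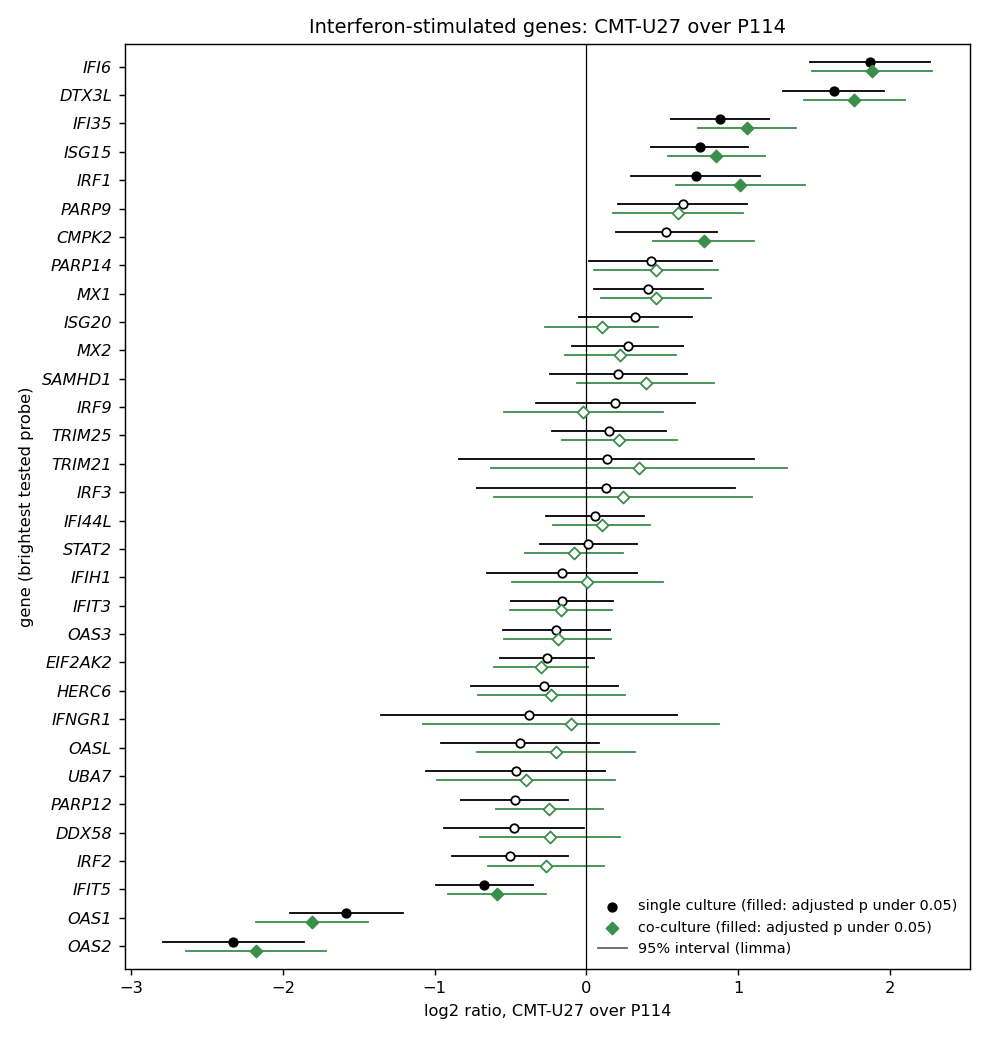
Difference CMT-U27 minus P114 in log2 intensity for the 32 tested members, with 95% intervals, in single culture and in co-culture. The values run from -2.33 for OAS2 to 1.87 for IFI6 in single culture, and OAS2 and OAS1 at one end and IFI6 and DTX3L at the other hold the ends in both cultures.

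The lines lie on different arrays, so these differences rest on putting the arrays on 1 scale. Without normalization between arrays 0 members were called in either culture by limma, although every called gene kept its sign: OAS2 gave -2.23, IFI6 2.14, DTX3L 1.78, OAS1 -1.30 and IFIT5 -0.28 in single culture, with the median of all probes at 0.38. Fits that left out 1 array had no dye term and 1 array of that line, so only sizes in single culture are given. Without P114 replicate 1, the array that stood apart, OAS2 was -2.41, IFI6 1.93, DTX3L 1.61 and OAS1 -1.72. In the same fit IFI35 was 0.98, ISG15 0.80, IFIT5 -0.70 and IRF1 0.57. Without P114 replicate 2 OAS2 was -2.24 and IFI6 1.81, and without CMT-U27 replicate 2 they were -2.30 and 1.85. The sizes depended on background handling. With the scanner software's own processed signals IFI6 was 7.55-fold, DTX3L 4.72-fold and ISG15 2.99-fold higher in single culture and OAS1 7.88-fold lower, all still called, while OAS2 was 5.12-fold lower, close to its main value. With the same signals IFI35 was 4.54-fold higher (limma adjusted p = 0.053), IRF1 3.98-fold higher (0.143) and IFIT5 2.56-fold lower (0.250), and these 3 were no longer called. In other single-culture fits with all 4 arrays, IRF1 was not called without background correction (limma adjusted p = 0.054) or with median centring (0.201). Without the filter on dim probes IRF1 was not called either (0.065). IFIT5 was not called without background correction (0.082). OAS2 and IFI6 stayed called in each fit with all 4 arrays, other than that without normalization between arrays. Centring on the median moved the split of all called probes from 2362 higher of 4361 to 990 of 4937 in single culture, and from 2531 of 4429 to 6240 of 8029 in co-culture.

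**Figure D4:**
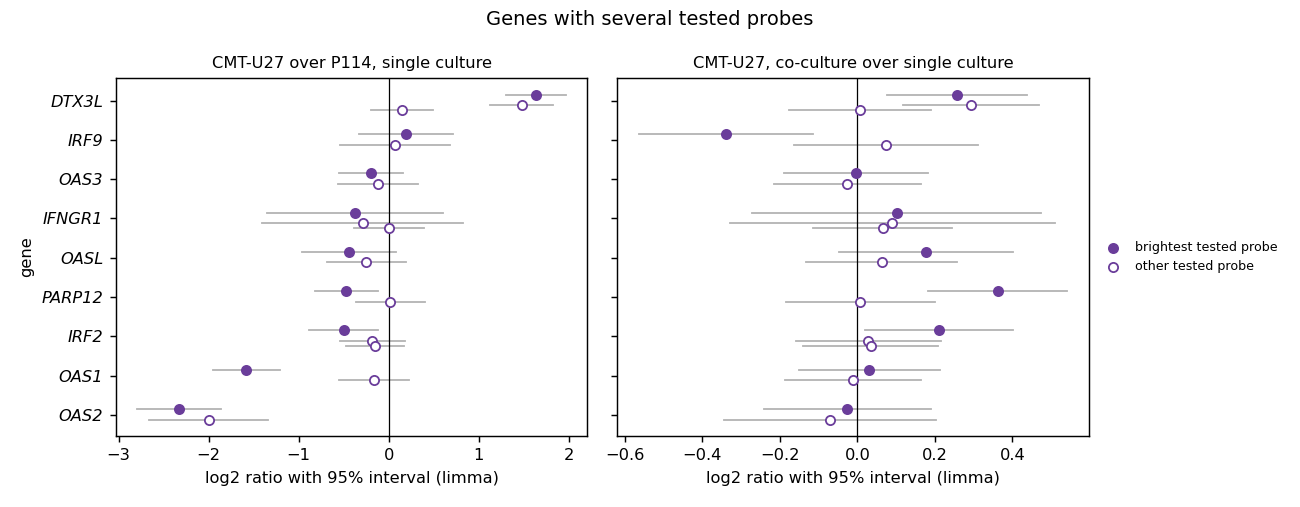
Log2 differences of each tested probe for the 9 members with several tested probes, for CMT-U27 over P114 in single culture and for co-culture over single culture in CMT-U27. The OAS2 probes, which overlap, lie together near -2 between the lines. For DTX3L 2 probes lie at 1.63 and 1.48 between the lines and the most 5′ one at 0.15. The second OAS1 probe, at -0.16, was dim in both lines and not well above background in CMT-U27, so its value is only a bound.

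Other genes of the interferon pathway were read from a list of 36; the array held 24 by symbol and 18 had enough signal for the test. None was called with co-culture in limma, at a median log2 ratio of 0.03 in P114 and 0.07 in CMT-U27. Between the lines 3 of the 18 were called higher in CMT-U27 single culture and 0 lower, beside 10.1% and 7.71% of all genes. B2M, the light chain of MHC class I, was 3.35-fold higher (limma adjusted p = 0.030), MYD88, an adaptor of Toll-like receptors, 2.30-fold (0.0099) and LGALS9, a galectin induced by interferon gamma, 1.96-fold (0.0099). The ligands themselves gave little to read: IFNB1 was well above background in 1 channel and IFNG in 2, so neither was tested, and IFNL1 and IFNE were not found by symbol. CD86, of the macrophage list, stood at 9.37 and 9.29 in P114 single culture and was not well above background in any CMT-U27 channel, where it read 6.97 and 6.96, and its part in the differences between lines was not tested.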

How the data were processed

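Gene expression was measured on 4 two-colour Agilent arrays (design 021193, positions on CanFam3.1 per the file headers). The deposited files give scanner intensity for each spot as the authors' scanner software wrote it, with flags for signal above background, and the authors' log10 ratio; the submitters' processing notes name Feature Extraction 10.7.3.1 and the file headers 10.10.1.1. The labels' protocol names a miRNA labelling kit. The authors' deposited series table holds the same log10 ratio of Cy5 over Cy3 on every array (largest gap 0, column medians 0) and was used only as an alternative.

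Mean intensities were background-corrected with limma 3.58.1 (R 4.3.3; normexp, offset 50) and loess-normalized array by array, giving control spots no weight; flagged outlier spots were left out, which lost 40 probes. Repeated spots of a probe were averaged. Ratios were turned to co-culture over single culture by the dye labels. Tested probes were those well above background on both arrays for 1 or more combinations of line and culture. The ratio model held 1 coefficient for each line and a probe-specific dye term (1 residual degree of freedom, 2.76 prior). Lines were compared by limma's separate-channel fit after Aquantile (3 residual degrees of freedom, 2.69 prior, intraspot correlation 0.94), with Benjamini-Hochberg adjustment over 28694 probes. The fits were tested on simulated data. A gene is shown by its brightest tested probe. Values on every array are given for members past the adjusted threshold, for the 6 with the largest ratios of 1 sign on both arrays where fewer than 5 passed, and for a set of core genes. Of 41 symbols on the array 40 were in the RefSeq table. The members and lists were chosen with earlier results of these data known. The number of arrays limits the precision. Alternatives were other background corrections, normalizations, filters, dye handling, probe choices and leaving out each array.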

Additional observations from a re-analysis of the deposited data

How the results depend on the processing

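In co-culture, 0 members were called by limma under every alternative that kept all 4 arrays, other than median centring. Median centring called 20 in CMT-U27, 20 in the mean of both lines and 15 in the difference. Of all 28694 probes it called 17343, 16518 and 12449. It turned IRF9 to 1.34 in CMT-U27, 0.84 in the mean and 1.00 in the difference. IFNGR1 turned to 0.89 in the mean, with the median of all probes itself moved. In P114 median centring called 0 members. Between the lines, the 8 members called in single culture became 16 without the dye term, 0 without normalization between arrays and 4 to 22 when 1 array was left out; the 9 in co-culture became 0 without that normalization and 7 to 21 when 1 array was left out. The fits that leave out an array have no dye term, chosen after seeing the data because the fit with it could not be made on 3 arrays. Each co-culture ratio is already paired within its array; no pairing across arrays or lines was possible because the replicate numbers follow accession order. Precision is limited by 2 arrays per line, by the signal of dim probes, whose ratios an offset of 50 shrinks, and by 9 members without enough signal.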

Other observations

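Some probes carry an interferon-stimulated gene in words in their description without its symbol, and were outside the list's rule. A probe described as interferon regulatory factor 7, a transcription factor that amplifies the type I response, was well above background in 8 channels. It stood at 7.07 and 7.15 in P114 single culture and at 8.11 and 8.16 in CMT-U27, a log2 difference of 1.02 that did not pass adjustment (SE 0.33, limma adjusted p = 0.099). Its co-culture log2 ratios were -0.06 and 0.11 in P114 and -0.04 and 0.28 in CMT-U27. A probe described as interferon-induced protein 44 differed between lines by 0.02 and one for a transcript cluster like IFIT3 by -0.97 (limma adjusted p = 0.085).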
